A study of Mus musculus with 4 samples.

Results

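The 4 adult globin genes Hba-a1, Hba-a2, Hbb-bs and Hbb-bt, the erythroid heme enzyme gene Alas2 and the red cell anion exchanger gene Slc4a1 were followed through liver RNA of WT and PA mice, as 6 of 55487 gene identifiers. They were chosen by name with the difference between PA and WT already known, so their values in that contrast are given as a description and carry no test. The series measured polyadenylated RNA from 20 mg pieces of frozen liver of 4 female mice of the FVB strain background, all aged 11 weeks and fed standard chow. The 2 WT mice carry no alteration that the labels name. The 2 PA mice are labelled hypomorphic Pcca-/- (A138T); Pcca is needed to make propionyl-CoA carboxylase, which removes propionyl-CoA in mitochondria, and the labels name no promoter for the A138T allele. The series calls the replicates biological, and its title sets the comparison among studies of histone H4 acylation and metabolic perturbation.

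Hemoglobin is a tetramer of alpha and beta globin chains, each of which holds a heme group. Developing red cells make it in bone marrow and spleen, with ALAS2 starting heme synthesis and the anion exchanger encoded by Slc4a1 built into the membrane, and reticulocytes carry globin mRNA into the blood. Fetal liver is a site of red cell production, whereas adult liver is mainly hepatocytes supplied with blood through its sinusoids. The labels' protocols do not say whether the livers were perfused.

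The globin genes come in near-identical pairs, so a read from a shared stretch matches both genes of a pair. On GRCm38, in the GENCODE M21 annotation, Hba-a1 (ENSMUSG00000069919) lies at chr11:32283511-32284465 on the plus strand and Hba-a2 (ENSMUSG00000069917) at chr11:32296489-32297298 on the same strand. Hbb-bs (ENSMUSG00000052305) lies at chr7:103826534-103828096 and Hbb-bt (ENSMUSG00000073940) at chr7:103812524-103813996, both on the minus strand. The coding sequences of the alpha pair, 429 bases each, differed at 1 base, C381T from Hba-a1 to Hba-a2. Those of the beta pair, 444 bases each, also differed at 1 base, C417T from Hbb-bs to Hbb-bt. Positions are counted from 1 at the A of the start codon, and both differences are at the third base of a codon. The 60 coding bases around each difference are shown because they hold the only coding letter that separates the members of a pair, printed as a capital. The alpha sequences run from coding base 351 to 410 and the beta sequences from 385 to 444, the end of the stop codon.
Hba-a1: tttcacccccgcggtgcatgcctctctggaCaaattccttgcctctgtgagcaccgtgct
Hba-a2: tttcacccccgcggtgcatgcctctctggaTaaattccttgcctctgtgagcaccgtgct
Hbb-bs: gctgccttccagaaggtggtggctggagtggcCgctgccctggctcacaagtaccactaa
Hbb-bt: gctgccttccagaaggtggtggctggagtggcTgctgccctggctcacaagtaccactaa

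Over whole transcripts, 86.9% of the 50-base windows of Hba-a2 also occurred in a transcript of another gene, against 67.5% for Hba-a1, 65.8% for Hbb-bs and 58.3% for Hbb-bt. With 100-base windows the shares were 74.5% for Hba-a2, 56.5% for Hba-a1, 62.6% for Hbb-bs and 54.8% for Hbb-bt, and each such window was found in the other gene of the pair. Alas2 (ENSMUSG00000025270, chrX:150547375-150570638, plus strand) shared 13.8% of its 50-base windows, with Apex2 and Mir3620. Slc4a1 (ENSMUSG00000006574, chr11:102348824-102366203, minus strand) shared none.

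The start regions are shown for 3 members because the globin genes moved together while Alas2 moved less. RefSeq promoters of build GRCm38.p6 matched 5 of the 6 members. Each line gives the longest stretch within 250 bases before the RefSeq start that lies outside every GENCODE M21 exon, 5′ to 3′ on the gene's strand, and capitals mark, on either strand, 4 short motifs that are textbook elements of red cell promoters or of promoters at large. These are CACCC, the core that KLF factors bind, GATAA, the core that GATA factors bind, CCAAT, an element of many promoters, and TATAA, the core of the TATA box. The stretches are chr11:32296242-32296488 for Hba-a2, chr7:103827929-103828011 for Hbb-bs and chrX:150547167-150547374 for Alas2.
Hba-a2: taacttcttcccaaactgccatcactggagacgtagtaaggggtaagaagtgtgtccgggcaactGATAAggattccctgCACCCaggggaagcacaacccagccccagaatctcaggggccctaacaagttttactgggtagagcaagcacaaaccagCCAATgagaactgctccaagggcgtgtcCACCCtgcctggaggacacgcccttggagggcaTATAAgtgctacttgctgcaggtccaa
Hbb-bs: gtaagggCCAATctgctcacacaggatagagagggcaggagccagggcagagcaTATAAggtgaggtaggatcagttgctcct
Alas2: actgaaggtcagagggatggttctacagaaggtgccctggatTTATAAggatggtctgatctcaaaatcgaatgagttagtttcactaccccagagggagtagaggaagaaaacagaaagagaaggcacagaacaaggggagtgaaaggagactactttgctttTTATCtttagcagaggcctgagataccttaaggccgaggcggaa

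The 250 bases before the start of Hba-a1 and Hba-a2 were identical over 247 bases at an offset of 3, whereas those of Hbb-bs and Hbb-bt were 51% identical over 249. All 4 globin windows of 250 bases held all 4 motifs. The Alas2 window held CACCC 3 times, all on the opposite strand, GATAA at 1 place, TATAA at 2 overlapping places on opposite strands, and no CCAAT. Among 32851 RefSeq promoters read over the same length, CACCC was in 52.01% of all promoters, GATAA was in 22.58% of all, CCAAT was in 33.85% of all and TATAA was in 22.78% of all, and 0.968% held all 4 motifs. In the globin windows TATAA began 27 to 30 bases before the start, and in Hbb-bt 1 further match lay 229 bases before it. These matches are a description of letters.

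Gene counts ranged from 25575016 to 30110400 per library, so that 3 counts equal 0.0977 to 0.118 CPM, the count relative to the library size after scaling by the TMM method. Reads mapping to several places made up 9.11 and 9.42% of reads in WT replicates 1 and 2 and 13.5 and 9.19% in PA replicates 1 and 2. Hepatocyte marker genes summed to 175371 and 192556 CPM in the WT livers and to 161153 and 198751 CPM in the PA livers, which fits the labelled tissue. Of the 4 globin genes, 1 read in all was counted on the sense-strand column and 3886 on the opposite one, the column used throughout.

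The alpha globin genes had few counts in every liver and fewer in PA livers. STAR, which drops reads that map to several places, counted Hba-a1 192 and 76 times in WT replicates 1 and 2 and 12 and 34 times in PA replicates 1 and 2. As levels these were 6.25, 2.98, 0.471 and 1.14 CPM. WT replicate 1 was highest, PA replicate 1 was lowest, and the groups did not overlap.

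The group means of Hba-a1 were 4.62 ± 2.31 CPM (WT) and 0.807 ± 0.476 CPM (PA; SD, n = 2), a log2 difference of -2.50 with an SE of 0.52 in edgeR. Hba-a2, the second alpha gene, was counted 121 and 46 times in WT and 8 and 21 times in PA, or 3.94, 1.81, 0.314 and 0.706 CPM. Its means were 2.87 ± 1.51 and 0.510 ± 0.277 CPM (SD, n = 2), and its log2 difference was -2.47 (SE 0.54). The 4 livers stood in the same order for both alpha genes.

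Hbb-bs, an adult beta gene, had the most STAR counts of the members in 3 livers and the second most, after Alas2, in PA replicate 1. It was counted 1749 and 772 times in WT replicates 1 and 2 and 125 and 218 times in PA replicates 1 and 2, which is 57.0, 30.3, 4.90 and 7.33 CPM. Its means were 43.6 ± 18.9 CPM (WT) and 6.12 ± 1.72 CPM (PA; SD, n = 2), a log2 difference of -2.83 (SE 0.36), and 76 of 14411 tested genes had a lower one. Both WT livers lay above both PA livers, the lowest WT value being 4.13-fold the highest PA value.

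Hbb-bt, the other adult beta gene, was counted 312 and 144 times in WT and 19 and 37 times in PA, or 10.2, 5.65, 0.745 and 1.24 CPM. Its means of 7.91 ± 3.19 and 0.995 ± 0.353 CPM (SD, n = 2) gave a log2 difference of -2.98 (SE 0.41). Again WT replicate 1 was highest and PA replicate 1 lowest, and the groups did not overlap.

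Summed over the 4 genes, globin reached 77.3 and 40.7 CPM in the WT livers and 6.43 and 10.4 CPM in the PA livers. The means of 59.0 ± 25.9 and 8.43 ± 2.82 CPM (SD, n = 2) differed 7.0-fold. Livers of one genotype also differed: the sum in WT replicate 1 was 1.90-fold that in WT replicate 2, and the sum in PA replicate 2 was 1.62-fold that in PA replicate 1. The gap between the closest livers of the 2 groups, 3.91-fold, was wider than both. In bulk liver, fewer cells that hold globin mRNA and less globin mRNA in each such cell cannot be told apart.

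**Figure D1:**
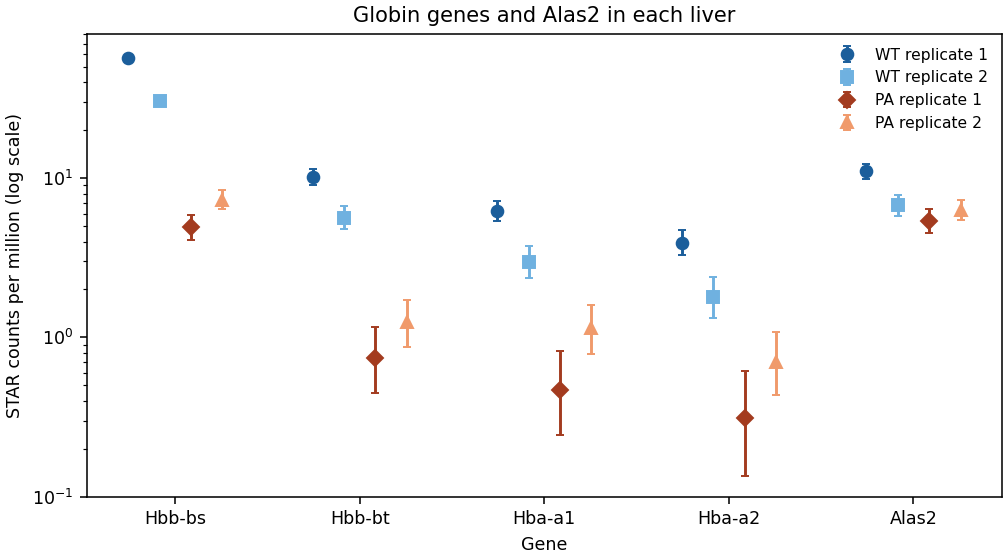
CPM from STAR counts of 5 members (log axis) in each of the 4 livers; points are single libraries and bars are exact 95% Poisson intervals, which cover counting error only. For each globin gene both WT points lie above both PA points, while for Alas2 WT replicate 2 and PA replicate 2, at 6.75 and 6.36 CPM, are close together; Slc4a1, with 2 counts in all, is not drawn.

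Alas2 encodes the enzyme that starts heme synthesis in red cell precursors. It was counted 340 and 172 times in WT replicates 1 and 2 and 138 and 189 times in PA replicates 1 and 2, or 11.1, 6.75, 5.41 and 6.36 CPM. Its means were 8.91 ± 3.06 CPM (WT) and 5.88 ± 0.666 CPM (PA; SD, n = 2), a log2 difference of -0.60 (SE 0.29).

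The groups did not overlap for Alas2, but the lowest WT value was 1.06-fold the highest PA value, and WT replicate 1 set most of the difference. Without that library the log2 difference was -0.20, and without WT replicate 2 it was -0.90. The last exon of Alas2 meets Apex2, a gene on the opposite strand, over 311 of 2037 exonic bases. Counted without regard to strand, Alas2 had 293, 140, 122 and 156 counts and a log2 difference of -0.58.

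Slc4a1, the anion exchanger of the red cell membrane, had 2 counts in WT replicate 1 and 0 in the other 3 livers. Both groups are at or under the floor of 3 counts, so no fold is given, and a count of 0 allows 3 counts, which is 0.118 CPM in WT replicate 2 and 0.118 and 0.101 CPM in PA replicates 1 and 2.

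All 4 globin genes and Alas2 passed the filter on low counts, and Slc4a1 did not. Of these 5, Hbb-bs and Hbb-bt were called lower in PA by edgeR's quasi-likelihood test at an adjusted p of 0.05, where 0.812% of the 14411 tested genes were called in either direction and 0.548% were called lower. DESeq2 called all 4 globin genes lower, against 1.72% of its tested genes. Both PA livers lay below both WT livers for all 5 tested members and for 21.9% of tested genes. The median log2 difference of the 4 globin genes was -2.66 and that of all tested genes was 0.00. Since the members were selected on this contrast, nothing is read from these counts.

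Single livers moved the size of the globin difference. Leaving out 1 library at a time, the log2 difference of Hbb-bs ran from -3.21 to -2.31 and that of Hbb-bt from -3.41 to -2.50. For Hba-a1 the range was -3.29 to -1.87 and for Hba-a2 -3.19 to -1.80. All 4 globin genes were called lower without WT replicate 2 or without PA replicate 2, where 0.918 and 1.74% of all tested genes were called lower, above the 0.548% of the fit with all 4 libraries. Hbb-bs and Hbb-bt alone were called without WT replicate 1 or without PA replicate 1, where the shares of all tested genes were 0.705 and 1.16%.

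**Figure D2:**
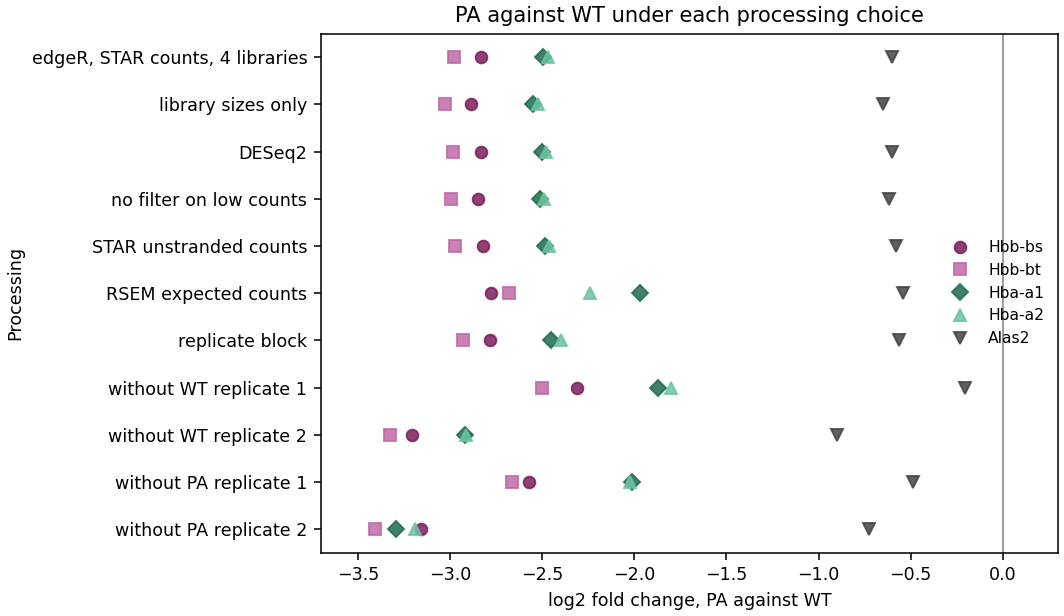
Log2 fold change of PA against WT (x axis) for the 4 globin genes and Alas2 under each way of processing the counts (y axis), 1 point per gene. The globin points lie between -3.41 and -1.80 and the Alas2 points between -0.90 and -0.20, the last without WT replicate 1.

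RSEM, which shares reads of several possible origins among the genes, gave larger counts for the globin genes. For Hba-a2 it estimated 714.33 and 304.23 reads in WT replicates 1 and 2 and 65.69 and 138.26 in PA replicates 1 and 2. For Hba-a1 the estimates were 497.67, 181.77, 51.31 and 112.74 in the same order. Thus Hba-a1 led the pair by STAR, with 60 to 62.3% of alpha counts in the 4 livers, and Hba-a2 led it by RSEM, with Hba-a1 at 37.4 to 44.9%.

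The RSEM estimates of Hbb-bs were 3481.67, 1468.88, 238.65 and 444.33, and those of Hbb-bt were 596.33, 265.12, 44.35 and 82.67. Within the beta pair the methods were closer, with Hbb-bt at 13.2 to 15.7% of beta counts by STAR and 14.6 to 15.7% by RSEM. The alpha sum and the beta sum of the RSEM estimates were whole numbers in every library, although the single estimates were not. The order of the livers was the same for each globin gene by both methods.

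STAR kept 16.4% of the RSEM estimate of Hba-a2 over the WT livers and 14.2% over the PA livers, the lowest shares among the members. The shares were 39.4 and 28.0% for Hba-a1, 50.9 and 50.2% for Hbb-bs and 52.9 and 44.1% for Hbb-bt. Alas2 had more reads by STAR than by RSEM, 117 and 116%. Hba-a2 had the highest share of repeated windows and the lowest share kept. For Hba-a1 and Hbb-bs the order depended on the window. Hbb-bs, of which STAR kept more, repeated less with 50-base windows, 65.8 against 67.5%. With 100-base windows Hbb-bs repeated more, 62.6 against 56.5%. Whether repeated sequence sets the share kept was not tested. In the fit of RSEM counts the log2 differences were -1.97 (SE 0.45) for Hba-a1, -2.24 (SE 0.40) for Hba-a2, -2.78 (SE 0.38) for Hbb-bs, -2.68 (SE 0.38) for Hbb-bt and -0.54 (SE 0.29) for Alas2. There edgeR called 2 globin genes lower, Hbb-bs and Hbb-bt, against 0.456% of 13802 tested genes. As the members were selected on this contrast, nothing is read from that count.

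**Figure D3:**
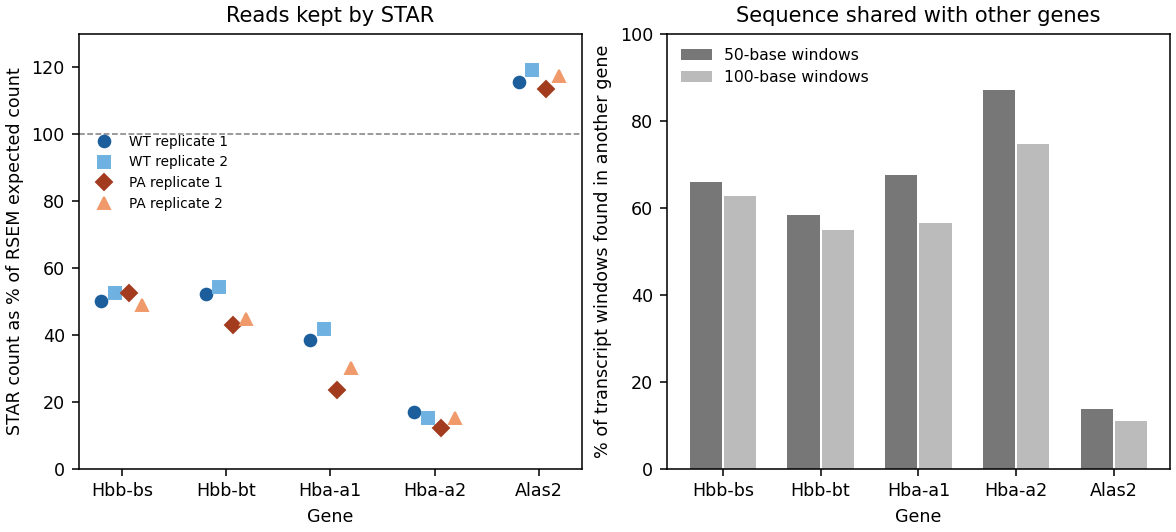
Left, the STAR count as a percentage of the RSEM expected count for each gene in each of the 4 livers, with a dashed line at equal counts; right, the percentage of 50-base and 100-base windows of each transcript found in another gene. Hba-a2 has the lowest points on the left, 12.2 to 16.9%, and the highest bars on the right, 86.9 and 74.5%.

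Levels can be set against each other only per length, as TPM, the RSEM level relative to transcript length and library. Hbb-bs stood highest in each liver, at 318.91 and 153.03 TPM in WT and 20.33 and 39.14 TPM in PA, which placed it at rank 385 and 669 of all genes in the WT livers and 2596 and 1848 in the PA livers. Hba-a2 came next at 76.17, 37.08, 6.4 and 14.47 TPM. Hbb-bt had 46.23, 23.49, 3.14 and 6.27 TPM and Hba-a1 had 39.58, 16.71, 3.75 and 8.75 TPM, so that their order in WT livers was turned in PA livers. Alas2 followed at 7.15, 4.35, 2.79 and 3.59 TPM.

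In WT the group means were 236 ± 117 TPM for Hbb-bs, 56.6 ± 27.6 for Hba-a2, 34.9 ± 16.1 for Hbb-bt, 28.1 ± 16.2 for Hba-a1 and 5.75 ± 1.98 for Alas2 (SD, n = 2). Hba-a2 and Hbb-bt, and likewise Hbb-bt and Hba-a1, differed in their means by less than the SD of the higher one, while the steps from Hbb-bs to Hba-a2 and from Hba-a1 to Alas2 were larger than that SD. The SD holds the gap between the WT livers that the globin genes shared, so it does not measure the order of genes within a liver. Within every liver Hba-a2 was above Hbb-bt, whereas Hbb-bt was above Hba-a1 in the WT livers only. Together the globin genes made up 480.89 and 230.31 TPM in WT and 33.62 and 68.63 TPM in PA.

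The balance of alpha and beta reads within a liver is formed from the same counts as the differences above. It is therefore a further description of them and not an independent check. By STAR, alpha genes gave 13.2% of globin counts in WT replicate 1 (Wilson 95% interval 11.9 to 14.6), 11.8% in WT replicate 2 (9.93 to 13.9), 12.2% in PA replicate 1 (8.03 to 18.1) and 17.7% in PA replicate 2 (13.9 to 22.4). The groups overlapped, with a difference of 2.50 percentage points (two-sided exact permutation test, p = 0.667). By RSEM the shares were 22.9 and 21.9% in WT and 29.3 and 32.3% in PA, which did not overlap, with Wilson intervals of 21.8 to 24.1, 20.2 to 23.7, 25.0 to 33.9 and 29.1 to 35.6. The difference of 8.35 points has an exact two-sided permutation p of 0.333, the smallest that 2 livers against 2 allow, so this test cannot pass a threshold of 0.05 by either method. The direction by STAR rested on PA replicate 2, without which the difference was -0.27 points. As TPM, beta exceeded alpha 3.15-fold and 3.28-fold in WT and 2.31-fold and 1.96-fold in PA.

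**Figure D4:**
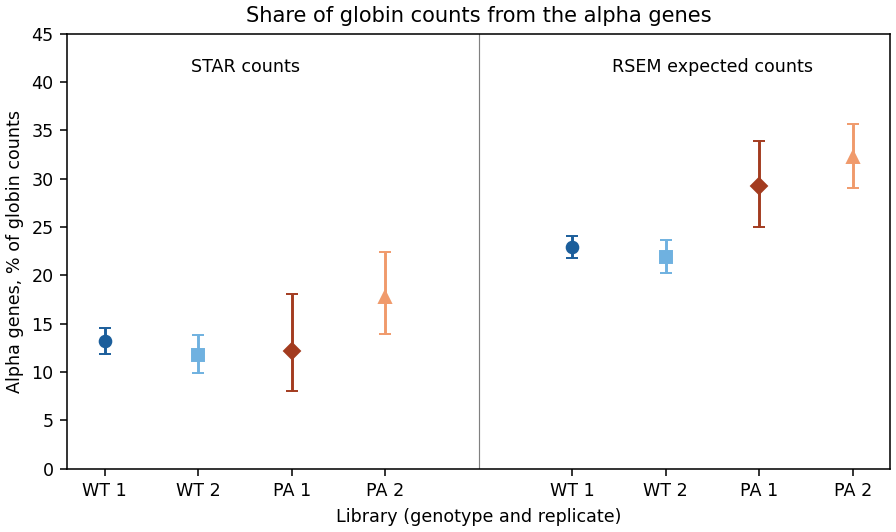
Share of globin counts that came from the 2 alpha genes (y axis, percent) in each of the 4 livers, from STAR counts on the left and RSEM expected counts on the right; bars are Wilson 95% intervals, which cover counting error only. The groups overlap by STAR, where PA replicate 1 is at 12.2%, and are apart by RSEM, where WT is at 21.9 to 22.9% and PA at 29.3 to 32.3%.

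Other genes of the red cell lineage showed no shared direction. Over 4 lists with 56 genes, 54 were in the annotation, 17 had 0 counts in every liver and 26 passed the filter. Of those 26, edgeR called 0, with 3 at an unadjusted p under 0.05, and DESeq2 called 0. The 3 were Gypc, Slc2a1 and Car2, with log2 differences of 0.99, 0.59 and 0.65, all named after their values were seen. The share of all tested genes at that unadjusted p is not given. Nothing is therefore read from that count or from the like counts of later lists. The median of the 26 log2 differences was -0.02, from -0.66 to 0.99, with 14 below 0 and 12 above. For 6 of the 26, or 23.1%, both PA livers lay below both WT livers, beside 21.9% of all tested genes.

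All 7 other globin genes, the embryonic and theta-like ones, had 0 counts in every liver. Of 19 genes of the red cell membrane and its skeleton, 6 were tested, with a median log2 difference of 0.11. The 3 most abundant are Cd59a, a complement inhibitor, the water channel gene Aqp1 and Epb41, which encodes protein 4.1. Cd59a was at 86.7 and 116 CPM in WT and 120 and 72.3 CPM in PA. Aqp1 was at 91.8 and 92.3 CPM in WT and 92.5 and 86.4 CPM in PA, and Epb41 at 77.3 and 69.9 CPM against 87.1 and 89.8 CPM. Each is also made outside the red cell lineage. Named after their values were seen, Epb42, Add2, Rhag, Rhd and Kel were the 5 genes of the list at 0 counts in every liver. Sptb, which encodes beta spectrin of red cells, had 41 and 46 counts in WT and 22 and 33 in PA, a log2 difference of -0.66 (SE 0.36) that edgeR did not call. Dmtn, a gene of the membrane skeleton, had 8 and 12 counts in WT and 3 and 1 in PA. Icam4, of the same list, went the other way, with 1 and 6 counts in WT and 16 and 7 in PA. Neither Dmtn nor Icam4 passed the filter. Sptb, Dmtn and Icam4 were also named after their values were seen.

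Among 10 erythroid transcription and signalling genes, 7 were tested, and their median log2 difference was 0.02. Ldb1, a cofactor that joins regulatory complexes, was at 18.0 and 20.0 CPM in WT and 34.2 and 17.9 CPM in PA. Zfpm1, the GATA cofactor FOG1, was at 14.7 and 11.3 against 15.3 and 11.1 CPM, and Lmo2 at 6.81 and 5.06 against 4.0 and 4.14 CPM. Gata1, the leading erythroid transcription factor, had 0 counts in every liver. Klf1, which drives adult beta globin in red cell precursors, had 42 and 53 counts in WT and 68 and 40 in PA, with the groups overlapping. Both were named after their values were seen.

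Of 20 genes of late red cell maturation, 18 were in the annotation and 13 were tested, with a median log2 difference of -0.06. Tfrc, the transferrin receptor gene, varied most within groups, at 121 and 50.9 CPM in WT and 43.7 and 169 CPM in PA. Fam210b was at 101 and 78.1 against 98.8 and 79.4 CPM, and Bnip3l, which acts in the clearance of mitochondria, at 88.5 and 105 against 89.8 and 59.4 CPM. Trim10, Trim58 and Tspo2, named after their values were seen, had 0 counts in every liver.

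The 8 shared heme synthesis enzymes had a median log2 difference of 0.20, and edgeR and DESeq2 called 0, with 2 at an unadjusted p under 0.05 in edgeR. Those were Cpox and Ppox, named after their values were seen, with log2 differences of 0.58 and -0.60. Alas1, the form of the first enzyme that hepatocytes use, was at 165 and 297 CPM in WT and 246 and 437 CPM in PA, with overlapping groups. Fech, which inserts the iron, was at 101 and 130 against 166 and 155 CPM, and Urod at 90.5 and 93.4 against 103 and 80.5 CPM.

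For 10 genes that clear hemoglobin and heme, the median log2 difference was 0.14 and edgeR called 0, with 1 at an unadjusted p under 0.05. That gene was Hp, whose product haptoglobin binds free hemoglobin and is also an acute phase protein. It was at 1277 and 1398 CPM in WT and 2865 and 2600 CPM in PA, a log2 difference of 1.03 (SE 0.26) with an adjusted p of 0.176 in edgeR and 0.00245 in DESeq2. Hpx, the gene of hemopexin, was at 6379 and 5656 against 7650 and 6303 CPM. Lrp1, a receptor for the complex of heme and hemopexin, was at 305 and 241 against 224 and 305 CPM.

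The summed levels of neutrophil, B cell, T and NK cell and Kupffer cell markers were lower in both PA livers than in both WT livers, and their part in the globin result was not tested. This was not particular to blood and immune cells. Sinusoidal endothelium markers summed to 379 and 350 CPM in WT and 294 and 318 CPM in PA. Cholangiocyte markers summed to 43.6 and 58.5 against 37.0 and 40.8 CPM. Neutrophil genes summed to 9.54 and 4.75 CPM in WT and 4.04 and 3.40 CPM in PA, with 3 of 10 tested, a median log2 difference of -1.14 and Ngp and Mpo at 0 counts. B cell genes summed to 20.8 and 17.9 against 7.41 and 9.28 CPM, with 7 of 10 tested and a median of -1.03. All 7 were below 0, beside 49.4% of all tested genes. T and NK cell genes summed to 6.19 and 5.34 against 3.41 and 4.64 CPM, with 5 of 10 tested and a median of -0.47.

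Platelet and megakaryocyte genes, which also come with blood, summed to 17.1 and 20.5 CPM in WT and 18.7 and 12.8 CPM in PA, with overlapping groups, 3 of 10 tested, a median of -0.31 and Gp1bb at 0 counts. Kupffer cell genes, markers of the macrophages of the sinusoids that take up aged red cells, summed to 737 and 644 against 339 and 470 CPM. All 12 were tested, 11 were below 0, beside 49.4% of all tested genes, and their median was -0.65. In none of the 5 lists of neutrophil, B cell, T and NK cell, platelet and Kupffer cell genes did edgeR call a gene. An unadjusted p under 0.05 in edgeR was found for 10 genes. Without its share over all tested genes, nothing is read from that count. DESeq2 called 3 genes, all lower in PA, where it called 1.72% of its tested genes lower. All 3 were named after their values were seen. These were the immunoglobulin gene Ighm, at 11.3 and 7.57 CPM in WT and 1.53 and 3.50 CPM in PA, and the Kupffer cell genes Clec4f and Cd5l. Their log2 differences were -1.90 (SE 0.41), -0.99 (SE 0.27) and -0.92 (SE 0.25). The median of the globin genes, -2.66, lay below the median of each of these lists, while of their tested genes Ighm alone lay within the range of -3.41 to -1.80 that the globin genes took under the alternatives.

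**Figure D5:**
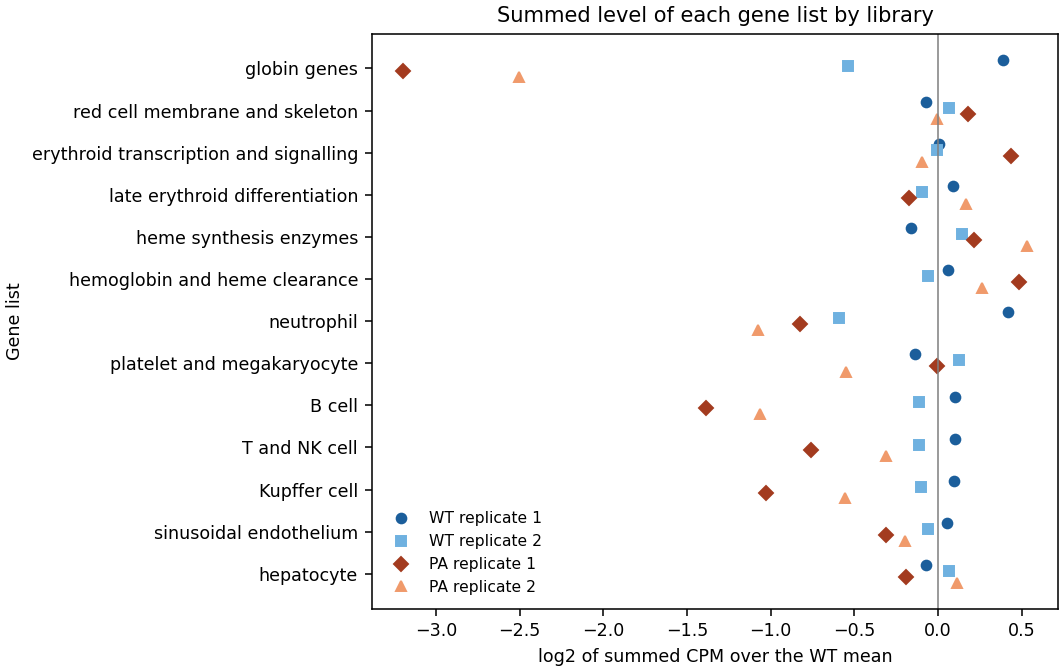
Summed CPM of each gene list in each of the 4 livers, as the log2 ratio to the mean of the WT livers (x axis), 1 point per library. The globin genes lie furthest to the left in PA. The neutrophil, B cell, T and NK cell, Kupffer cell and sinusoidal endothelium lists are also lower in both PA livers. The PA points of the other 3 erythroid lists lie on both sides of 0.

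The 8 genes outside the members whose profile over the 4 livers was nearest to the summed globin counts were found by the Euclidean distance between centred log2 CPM. They were Irf5 (distance 0.35), Ptgds (0.396), Gm17040 (0.405), Gbp11 (0.408), Gbp10 (0.423), Acsm2 (0.485), Gm44787 (0.498) and Socs2 (0.517). Irf5, an interferon regulatory factor, was at 23.2 and 12.5 CPM in WT and 2.59 and 3.67 CPM in PA. Socs2, an inhibitor of growth hormone signalling, was at 94.5 and 39.9 against 9.10 and 16.4 CPM. Hba-a2 and Hba-a1 lay at distances of 0.460 and 0.472, so that 5 genes of other kinds were nearer to the globin sum than either alpha gene. That sum is mostly beta counts, as the alpha genes gave 11.8 to 17.7% of it in the 4 livers, so it mainly follows the beta genes. Some counts behind these distances were low, with 8 and 12 for Hba-a2 and Hba-a1 and 3 for Gm17040 in PA replicate 1. The counting error of the distances was not worked out, so the order of such close distances is not read as a ranking. Alas2 lay at 2.25, at rank 948 of 14411. With 4 libraries such a list describes these livers only.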

How the data were processed

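The deposited STAR tables hold, per the authors' column layout, whole-number counts of reads for each gene, as deposited. Column 4, the opposite strand, held about 97% of stranded counts and was used, with unstranded counts as an alternative. The RSEM tables hold expected counts, TPM and transcript lengths in bases, per the file headers; expected counts were rounded for the fit. STAR 2.7.6a, RSEM 1.3.3 and GRCm38 are given in the submitters' processing notes; the annotation used for counting is not given in the sources used here. Summary lines that name no gene (28.1 to 34.3% of reads) were left out. Symbols came from GENCODE M21, which matched 55227 of 55487 identifiers.

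All genes passing filterByExpr were fitted with edgeR 4.0.16 (quasi-likelihood, TMM, R 4.3.3) and adjusted by Benjamini-Hochberg over all of them. An SE is the log2 difference divided by the square root of F. DESeq2 1.42.0, RSEM counts, other scaling, no filter, a replicate block and leaving out each library were alternatives. The steps were tested on simulated counts. Replicates differed beyond sampling noise (chi-square per degree of freedom 46.3 in WT and 135 in PA).

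The members and lists were chosen with earlier results of these data known. By rule, genes named are the members, genes that edgeR called and the 3 most abundant genes of each erythroid, heme or clearance list, and the 8 nearest profiles. Genes listed at 0 counts and those so marked were named after their values were seen. Likeness used log2 CPM with 0.5 counts added. Intervals cover counting error only. Some genes of the lists are counted in them but not reported here by name.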

Additional observations from a re-analysis of the deposited data

How the results depend on the processing

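The log2 difference of the summed globin counts was -2.81 under the settings reported. It stayed within 0.579 of that value, the pooled SD of the log2 sum between livers of a genotype, under each alternative run. It ran from -3.20 to -2.27 when single libraries were left out, and was -2.65 from RSEM counts and -2.78 with the replicate block. That SD and the shifts on leaving out a library come from the same gaps between livers. Staying within it is therefore no measure of how firm the value is. The difference in the alpha share ran from -0.27 to 5.27 points when single libraries were left out, and it was reversed, at -0.27, without PA replicate 2; the cause was not tested. The number of genes called in all, 117, was 435 with DESeq2, 902 with no filter on low counts, 318 with the replicate block, and 155 to 500 when single libraries were left out. Same-numbered livers did not deviate together (r = -0.09 across genes, 2 pairs), so the numbers were not taken to pair the livers. Low counts limit these values: the alpha genes had 8 to 34 STAR counts per PA liver, Hbb-bt had 19 and 37, and Slc4a1 had 0.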
